A study of Mus musculus with 12 samples.

Results

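The genes described here are 10 members of the circadian clock, Arntl, Npas2, Per1, Per2, Per3, Cry1, Nr1d1, Nr1d2, Dbp and Bhlhe41. They were chosen by gene symbol and not by their levels, and make up 10 of the 38087 genes with an Ensembl identifier in the count tables. All 10 passed the filter on low counts that kept 13902 genes. They were measured by mRNA sequencing in 12 libraries of mouse colonic mucosa, 6 of the Sgo1-/+ genotype and 6 of wild type. Sgo1 encodes shugoshin 1, which guards the cohesion of sister chromatids at the centromere, and the series asks how chromosome instability affects the colon. Both genotypes received azoxymethane, a carcinogen that causes colon tumours in rodents, at 4 mg/kg body weight 2 times a week from the age of 8 weeks to 12 weeks, and mucosa was taken at 9 months. No group without azoxymethane was analysed here, and the labels give neither the strain nor the time of day of collection. Whether each sample is a separate mouse is not stated in the labels, so p-values describe the spread between samples that may share a source.

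The mammalian clock is a loop of transcription and repression that runs with a period of about a day in nearly every cell type. The proteins of Arntl (BMAL1) and of Clock or its relative Npas2 bind DNA as a pair and switch on the Per and Cry genes, whose products gather and shut their own activators off. The same pair switches on Nr1d1 and Nr1d2, nuclear receptors that repress Arntl, and Dbp, a transcription factor that carries the rhythm to output genes. In peripheral tissues of mice kept in light and dark, Arntl, Npas2 and Cry1 are known to peak late in the night or in the morning. Nr1d1, Nr1d2, Dbp, the Per genes and Bhlhe41 are known to peak later in the day or in the evening. The colonic epithelium has such a clock, which is tied to feeding, nutrient transport and cell division.

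The DNA elements behind this loop can be read in the promoters of some of the genes. RefSeq windows of 300 bases (build GRCm38.p6), from 250 bases before to 50 bases after a transcription start, were at hand for 9 of the 10 genes. They were searched on both strands for the E-box CACGTG that the activator pair is known to bind, the D-box TTANGTAA of the Dbp family, and a RORE-like element of the kind bound by the Nr1d and Ror receptors, written as A, any 2 bases, T, any base and then GGTCA. The E-box stood in a window of 3 of the genes, Cry1, Per1 and Bhlhe41, and in 7.15% of all 32851 windows. Per3 held 2 D-boxes, a motif in 2.32% of all windows, and Arntl held 1 RORE-like match, a motif in 2.46% of all windows. These are matches of letters and no measurement of binding. The 5 windows are shown because each holds an element of the loop, with the match in capitals. They lie at chr7:113207261-113207560 on the plus strand for Arntl, chr10:85185005-85185304 on the minus strand for Cry1, chr11:69098699-69098998 on the plus strand for Per1, chr4:151044616-151044915 on the minus strand for Per3 and chr6:145865371-145865670 on the minus strand for Bhlhe41.
Arntl: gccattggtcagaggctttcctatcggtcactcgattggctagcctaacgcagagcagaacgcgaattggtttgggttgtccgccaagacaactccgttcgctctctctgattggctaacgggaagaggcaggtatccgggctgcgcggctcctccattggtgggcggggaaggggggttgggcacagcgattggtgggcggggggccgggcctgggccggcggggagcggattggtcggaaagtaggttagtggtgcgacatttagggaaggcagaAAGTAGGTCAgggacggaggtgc
Cry1: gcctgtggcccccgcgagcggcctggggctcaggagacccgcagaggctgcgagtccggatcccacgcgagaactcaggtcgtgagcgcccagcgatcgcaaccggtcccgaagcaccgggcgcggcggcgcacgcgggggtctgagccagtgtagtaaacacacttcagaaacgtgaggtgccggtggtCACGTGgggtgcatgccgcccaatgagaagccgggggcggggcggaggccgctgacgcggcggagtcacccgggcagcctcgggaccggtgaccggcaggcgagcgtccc
Per1: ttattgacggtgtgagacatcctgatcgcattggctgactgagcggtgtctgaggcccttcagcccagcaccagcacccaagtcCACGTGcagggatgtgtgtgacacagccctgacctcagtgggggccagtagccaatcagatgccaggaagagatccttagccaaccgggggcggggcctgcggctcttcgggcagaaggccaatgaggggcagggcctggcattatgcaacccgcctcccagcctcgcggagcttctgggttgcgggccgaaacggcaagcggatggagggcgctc
Per3: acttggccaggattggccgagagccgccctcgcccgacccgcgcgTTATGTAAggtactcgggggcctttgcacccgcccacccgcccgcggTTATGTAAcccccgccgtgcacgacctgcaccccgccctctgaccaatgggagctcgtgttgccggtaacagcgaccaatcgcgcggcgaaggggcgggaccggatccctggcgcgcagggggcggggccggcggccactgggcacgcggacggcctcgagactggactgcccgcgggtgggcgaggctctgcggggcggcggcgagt
Bhlhe41: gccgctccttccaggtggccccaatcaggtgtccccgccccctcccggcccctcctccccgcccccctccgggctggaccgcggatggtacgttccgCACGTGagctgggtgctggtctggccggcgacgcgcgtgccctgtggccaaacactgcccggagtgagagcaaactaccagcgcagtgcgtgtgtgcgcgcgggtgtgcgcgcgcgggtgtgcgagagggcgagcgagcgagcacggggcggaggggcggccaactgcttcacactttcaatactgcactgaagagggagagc

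The Cry1, Per1 and Bhlhe41 matches begin 60, 166 and 153 bases before the start, those of Per3 begin 205 and 158 bases before it, and that of Arntl begins 27 bases after it. Arntl and Per1 have a further window each, without a match. The windows of Npas2, Nr1d1, Nr1d2 and Dbp held none of the 3 motifs in these letters.

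The libraries held 5415110 to 9937598 counts each, and no pair of them was a repeat of the other. The targeted transcript, listed as Sgol1, was at 1.84 to 2.77 CPM in Sgo1-/+ and 1.49 to 6.80 CPM in wild type, where CPM is the count of a gene per 1000000 counts of its library after TMM scaling. Its log2 change of -0.67 ± 0.32 (SE) did not pass edgeR's quasi-likelihood test (adjusted p = 0.551), and was -0.36 without wild type replicate 2. A count over the whole gene does not tell which exons the allele lacks. The 9 markers of colonic epithelium were all detected and summed to 15841 to 26189 CPM in Sgo1-/+ and 14515 to 25285 CPM in wild type. Rows that resemble mitochondrial transcripts took 37.4% to 38.8% of counts in Sgo1-/+ replicate 3 and wild type replicates 3 and 5, and 10.4% to 22.3% in the other 9 libraries. Sgo1-/+ replicates 5 and 6 and wild type replicates 1 and 6 carry a suffix in their column names that the others lack, which the labels do not explain.

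All 10 clock genes were expressed in every library, on at least 34 counts. Averaged over the 12 libraries and divided by exon length, Nr1d1 had the highest level, at 24.8 CPM per kilobase, followed by Nr1d2 at 12.4, Npas2 at 7.90, Per2 at 7.06 and Dbp at 5.36 CPM per kilobase. Cry1 was at 4.32, Arntl at 2.87, Per1 at 2.45, Bhlhe41 at 2.07 and Per3 at 1.52 CPM per kilobase. Their spread within a genotype differed widely from gene to gene. The pooled SD of log2 CPM within genotypes was 1.09 for Per2, above that of 95.5% of genes tested, and 0.85 for Dbp, above that of 90.5%. Bhlhe41 and Per3 exceeded 85.4% and 81.8% of genes, whereas Nr1d2 and Nr1d1 lay near the middle, above 39.2% and 43.0%. The median over all genes tested was 0.35.

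**Figure D1:**
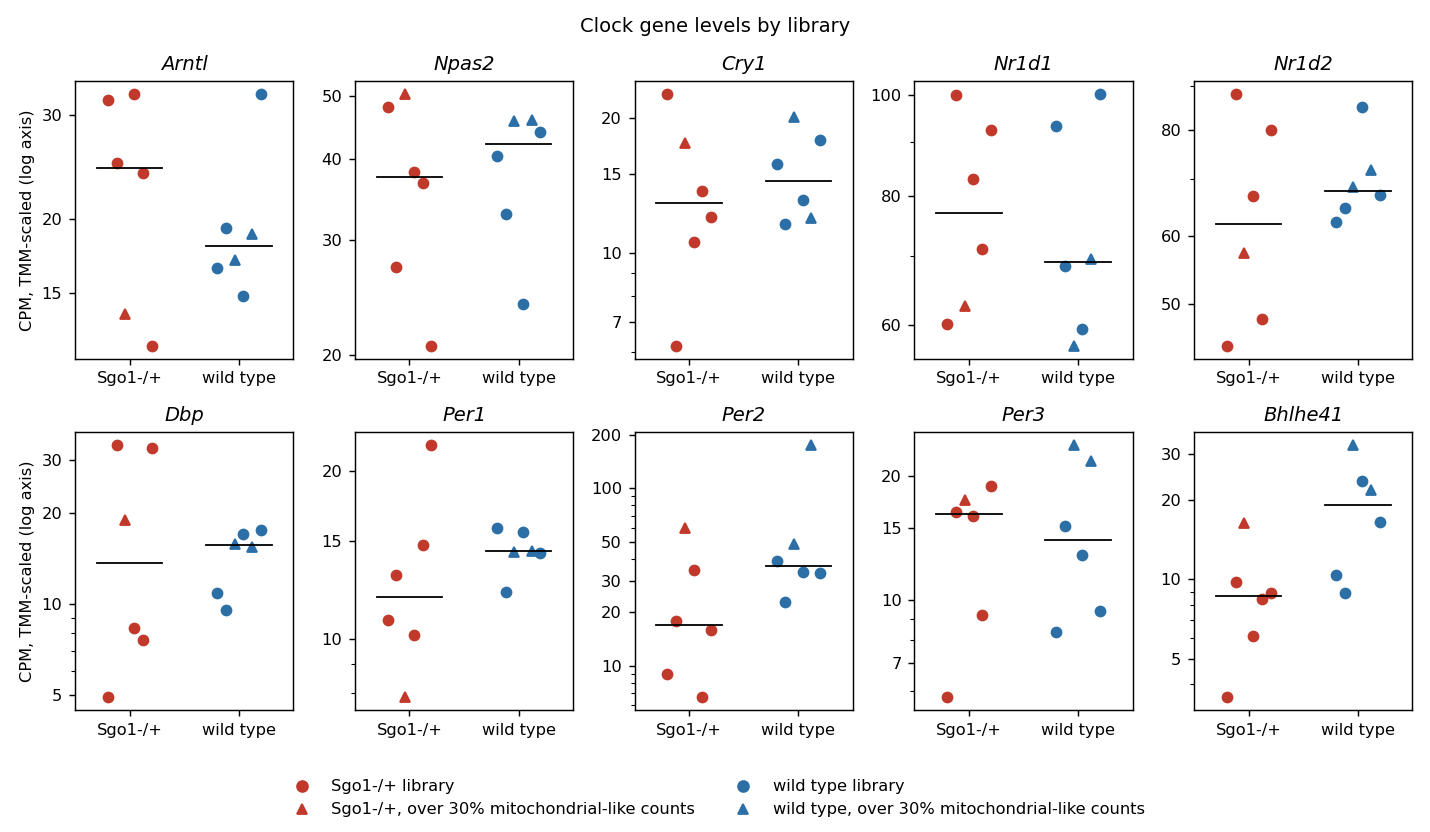
Level of each of the 10 clock genes in CPM on a log axis, with 1 point per library, Sgo1-/+ libraries left and wild type libraries right in each panel, lines at the group medians and triangles for the 3 libraries rich in mitochondrial-like counts. The groups overlap for every gene, Dbp spans 4.92 to 33.6 CPM among Sgo1-/+ libraries and 9.58 to 17.6 CPM among wild type libraries, and Per2 reaches 175 CPM in wild type replicate 5.

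Arntl (ENSMUSG00000055116, chromosome 7, 113207465 to 113314122, plus strand) encodes BMAL1, the partner that the activator pair cannot do without. It ran from 12.2 CPM over a median of 24.4 to 32.6 CPM in Sgo1-/+, and from 14.9 over 18.0 to 32.6 CPM in wild type. Sgo1-/+ replicates 1 and 4 and wild type replicate 6 stood at the top and Sgo1-/+ replicates 3 and 6 at the bottom, so the genotypes overlapped over nearly the whole range. The log2 change, Sgo1-/+ over wild type, was 0.23 ± 0.26 (SE; edgeR adjusted p = 0.802). Npas2 (ENSMUSG00000026077, chromosome 1, 39193731 to 39363234, plus strand), the relative of Clock that can take its place, ran from 20.6 over 37.5 to 50.3 CPM in Sgo1-/+ and from 23.9 over 42.2 to 45.8 CPM in wild type. Its log2 change was -0.07 ± 0.22 (edgeR adjusted p = 0.932), and Sgo1-/+ replicate 6 was the lowest library for Npas2 as well as for Arntl.

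Among the repressors of the main loop, Per2 varied most and Per1 was even in wild type. Per1 (ENSMUSG00000020893, chromosome 11, 69095217 to 69109960, plus strand), a period gene that also answers acute signals such as glucocorticoids, ran from 7.85 over 11.9 to 22.3 CPM in Sgo1-/+ and from 12.2 over 14.4 to 15.8 CPM in wild type. Its wild type values lay inside the range of the Sgo1-/+ values, with Sgo1-/+ replicate 3 lowest and replicate 6 highest. The log2 change was -0.12 ± 0.21 (edgeR adjusted p = 0.869).

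Per2 (ENSMUSG00000055866, chromosome 1, 91415984 to 91459330, minus strand), the period gene whose loss shortens and then abolishes the behavioural rhythm in mice, ran from 6.64 over 17.0 to 59.6 CPM in Sgo1-/+. In wild type it ran from 23.0 over 36.3 to 175 CPM. The highest library was wild type replicate 5, followed by Sgo1-/+ replicate 3 and wild type replicate 3, and the lowest were Sgo1-/+ replicates 5 and 1. The log2 change was -1.31 ± 0.59 (95% interval -2.57 to -0.046). In edgeR its p was 0.0433 unadjusted and 0.539 adjusted, and the exact two-sided permutation p was 0.0671. The change was -0.59 when wild type replicate 5 was left out and -1.78 when Sgo1-/+ replicate 3 was.

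Per3 (ENSMUSG00000028957, chromosome 4, 151003652 to 151044665, minus strand), which is dispensable for the core rhythm, ran from 5.79 over 16.2 to 19.0 CPM in Sgo1-/+ and from 8.35 over 14.0 to 23.9 CPM in wild type. Sgo1-/+ replicates 1 and 5 and wild type replicates 1 and 6 were its 4 lowest libraries. The log2 change was -0.11 ± 0.32 (edgeR adjusted p = 0.929). Cry1 (ENSMUSG00000020038, chromosome 10, 85131702 to 85185054, minus strand), the cryptochrome that blocks the activator pair late in the cycle, ran from 6.19 over 12.9 to 22.7 CPM in Sgo1-/+ and from 11.6 over 14.5 to 20.1 CPM in wild type. The lowest and the highest library were both Sgo1-/+, replicates 2 and 1. Its log2 change was -0.13 ± 0.26 (edgeR adjusted p = 0.895).

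The nuclear receptor genes were the most even of the 10. Nr1d1 (ENSMUSG00000020889, chromosome 11, 98767932 to 98775333, minus strand) encodes REV-ERB alpha, a haem-binding repressor of Arntl. It ran from 60.1 over 77.0 to 99.9 CPM in Sgo1-/+ and from 57.3 over 69.0 to 100.3 CPM in wild type, a log2 change of 0.07 ± 0.17 (edgeR adjusted p = 0.923). Nr1d2 (ENSMUSG00000021775, chromosome 14, 18204054 to 18239127, minus strand), its close relative REV-ERB beta, ran from 44.6 over 62.0 to 88.2 CPM in Sgo1-/+ and from 62.3 over 67.8 to 85.0 CPM in wild type. The 3 lowest Nr1d2 libraries were Sgo1-/+ replicates 1, 5 and 3, and the highest was Sgo1-/+ replicate 2. Its log2 change was -0.12 ± 0.16 (edgeR adjusted p = 0.828). Of the exon bases of Nr1d1, 8.55% are shared with Thra on the opposite strand in GENCODE M21. Thra was at 43.4 to 67.7 CPM. Since no source used here says whether strand was used in counting, reads of the shared stretch cannot be told apart.

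Dbp (ENSMUSG00000059824, chromosome 7, 45705088 to 45710155, plus strand), a PAR bZIP activator of output genes and among the most strongly rhythmic transcripts of mouse tissues, showed its extremes within 1 genotype. It ran from 4.92 over 13.6 to 33.6 CPM in Sgo1-/+ and from 9.58 over 15.6 to 17.6 CPM in wild type. Sgo1-/+ replicates 2, 6 and 3 were above every wild type library and Sgo1-/+ replicates 1, 5 and 4 below every one. The highest library was 6.82 times the lowest in Sgo1-/+ and 1.84 times in wild type, and the SD of log2 CPM was 1.15 and 0.36 (n = 6 each). This difference in spread was noticed in the values and was not tested. The means differed little, with a log2 change of 0.30 ± 0.43 in edgeR (adjusted p = 0.839) and a difference of -0.03 between the means of log2 CPM (exact two-sided permutation p = 0.935). Sphk2 on the opposite strand shares 18.0% of the exon bases of Dbp and was at 40.5 to 60.9 CPM, so part of the Dbp count could come from Sphk2.

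Bhlhe41 (ENSMUSG00000030256, chromosome 6, 145858243 to 145865558, minus strand) encodes DEC2, a bHLH repressor that competes for the E-box. Of the 10 genes it had the smallest p. It ran from 3.57 over 8.66 to 16.4 CPM in Sgo1-/+ and from 8.91 over 19.2 to 32.4 CPM in wild type. Sgo1-/+ replicate 3 was the only Sgo1-/+ library above 9.81 CPM, and wild type replicate 2 the only wild type library below that value. The log2 change was -1.11 ± 0.37 (95% interval -1.89 to -0.32). In edgeR the p was 0.0092 unadjusted and 0.517 adjusted, and by exact two-sided permutation it was 0.0195. The antisense gene Gm43909, which overlaps 19.0% of its exon bases in GENCODE M21, was not analysed here.

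Against all genes tested, 0 of the 10 clock genes passed an adjusted p of 0.05 in edgeR, where the share of all genes called was 0%. DESeq2, run without the filter on low counts, called 37 of the 19731 genes that had an adjusted p (0.188%). Limma-voom called 0 of 13902 (0%), and 0 of the 10 clock genes were called by either. Without adjustment, 2 of the 10, Per2 and Bhlhe41, had an edgeR p under 0.05, against 8.98% of all 13902 genes, and both were lower in Sgo1-/+, against 4.71% of all genes. By exact permutation of single genes 1 of the 10, Bhlhe41, had an unadjusted p under 0.05, against 8.62% of all genes. Adjusted p-values of the 10 ran from 0.517 to 0.932 in edgeR. In direction 7 of the 10 were lower in Sgo1-/+ and 3 higher, with 5 of the 7 evening-phase and 2 of the 3 morning-phase genes lower. Scaling by library totals alone, which moved the median of all genes to 0.31, turned 5 of the 7 lower genes, namely Npas2, Cry1, Nr1d2, Per1 and Per3. The median log2 change was -0.12 over the 10 genes and -0.0053 over all genes tested. No gene of the 10 separated the genotypes without overlap, and the share of all genes that did is not given here.

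**Figure D2:**
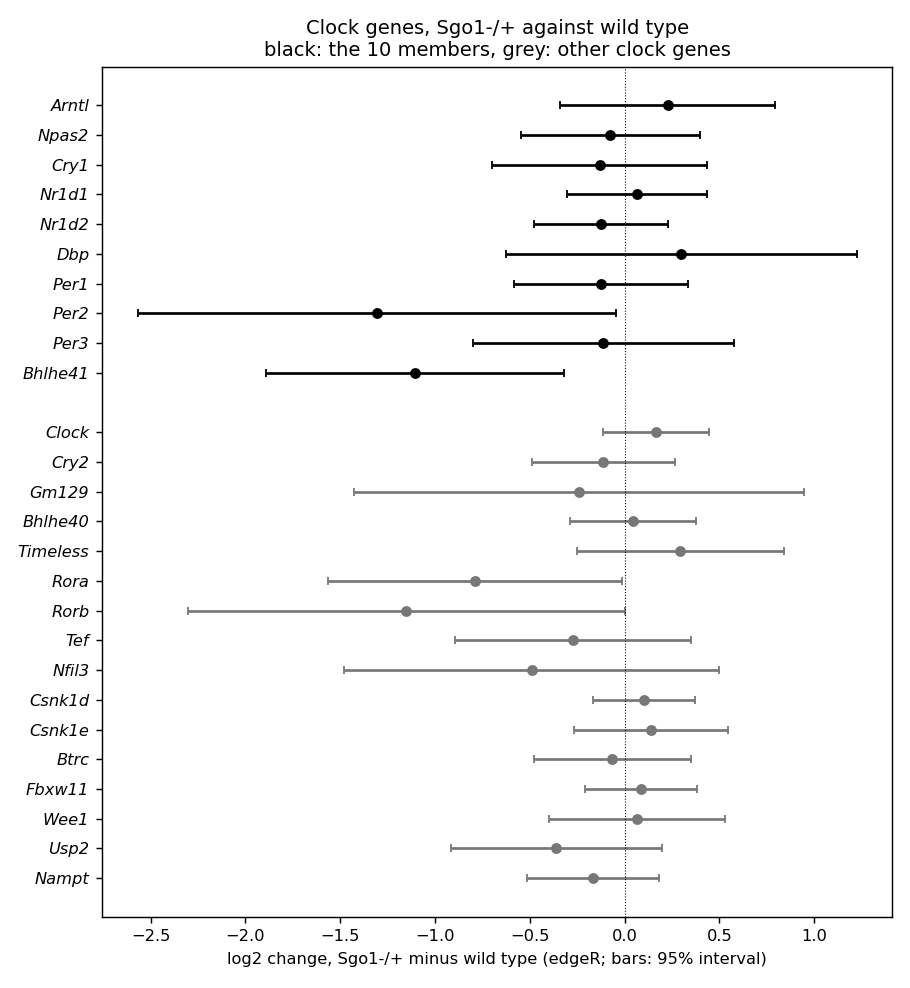
Log2 change, Sgo1-/+ over wild type, with its 95% interval for the 10 clock genes and the other clock genes tested in edgeR. The intervals of Per2 (-2.57 to -0.046), Bhlhe41 (-1.89 to -0.32) and Rora lie below 0, and none of the genes passed an adjusted p of 0.05.

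Per2 moved across the libraries with the summed level of 4 markers of neurons and glia. Of the 4 only the glial gene Sox10 passed the low-count filter. It was most of the sum in the higher libraries, but in Sgo1-/+ replicates 2, 5 and 6 its level was only 0.21, 0.30 and 0.46 CPM, and the neuronal marker Elavl4 had no count in Sgo1-/+ replicates 1 and 2 and wild type replicate 4, so the low sums rest on few counts. The neuronal marker Uchl1 had no count in Sgo1-/+ replicate 3, which had a sum of 20.8 CPM. Uchl1 was at 1.12 CPM in Sgo1-/+ replicate 4 and 1.07 CPM in wild type replicate 5. S100b and Elavl4 were highest in wild type replicate 5, at 0.80 and 1.33 CPM. The 4 markers summed to 0.72 to 20.8 CPM (median 1.66) in Sgo1-/+ and 3.26 to 38.9 CPM (median 8.79) in wild type. Per2 had a Pearson r of 0.87 (permutation p = 0.00012) and a Spearman rho of 0.92 (permutation p = 8e-05) with this sum over the 12 libraries on the log2 scale. Adjusted over 13901 genes the p-values were 0.0053 and 0.005, and r was 0.87 without the 2 libraries farthest from the median sum, 0.89 in the 8 libraries without the suffix and 0.71 in the 9 libraries with the lower mitochondrial-like share. Of all genes tested 6.36% followed this sum at an adjusted p under 0.05, and Per2 ranked 347 among them all by the size of r. None of the other 9 clock genes passed after adjustment, with r from -0.31 for Nr1d1 to 0.64 for Npas2, and Bhlhe41 had an r of 0.56 (permutation p = 0.0617, adjusted p = 0.188) and a rho of 0.53 (permutation p = 0.0803, adjusted p = 0.266).

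Per2 and Bhlhe41 also moved with the summed level of 5 myeloid markers. Mrc1, the macrophage mannose receptor, was the largest part of this sum in 10 libraries and Cd14 in Sgo1-/+ replicates 4 and 5. Cd14 did not follow the sum there, at 14.7 and 15.4 CPM in these Sgo1-/+ libraries, against 7.53 and 9.06 CPM in wild type replicates 3 and 5, which had the highest Mrc1. The other markers were low, at up to 2.38 CPM for Cd68, 5.06 CPM for Csf1r and 1.85 CPM for Itgax. Cd68 and Csf1r were at 0.75 and 2.26 CPM in wild type replicate 3, so the sum mostly followed Mrc1. Csf1r was highest in wild type replicate 5 and Itgax in Sgo1-/+ replicate 3. The 5 markers summed to 25.0 to 91.4 CPM (median 34.4) in Sgo1-/+ and 31.4 to 122 CPM (median 54.8) in wild type, and their r was 0.79 with Per2 (permutation p = 0.0018, adjusted p = 0.0159) and 0.81 with Bhlhe41 (permutation p = 0.0015, adjusted p = 0.0146), where 24.1% of all genes passed. Their rho was 0.78 with Per2 (permutation p = 0.0044, adjusted p = 0.0431) and 0.80 with Bhlhe41 (permutation p = 0.0025, adjusted p = 0.033). Without the 2 libraries farthest from the median these r were 0.64 and 0.70, without the suffix 0.81 and 0.84, and in the 9 libraries 0.48 and 0.68.

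The 3 libraries rich in mitochondrial-like counts were also the 3 highest for Per2, at 48.5 to 175 CPM against 6.64 to 39.0 CPM in the other 9. With the mitochondrial-like share Per2 had an r of 0.78 and Bhlhe41 0.79 (permutation adjusted p = 0.012 and 0.0135), where 4452 of 13902 genes passed. Their rho were 0.73 and 0.89 (permutation adjusted p = 0.0513 and 0.0071), and in the 9 libraries r was 0.56 and 0.70. When this share entered the edgeR fit as a covariate, the log2 change of Per2 was -0.58 and that of Bhlhe41 -0.69, and without the 3 libraries, an alternative added after the values were seen, they were -0.92 and -0.998. The part of the neuron and glia sum, the myeloid sum and the mitochondrial-like share in the genotype values of Per2 and Bhlhe41 was not tested. In bulk mucosa fewer cells of a type and less RNA per cell cannot be told apart. Among the cell type lists, only the neuron and glia list and the myeloid list were related to the clock genes. Whether Per2 and Bhlhe41 also moved with markers of other cell types was not examined.

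**Figure D3:**
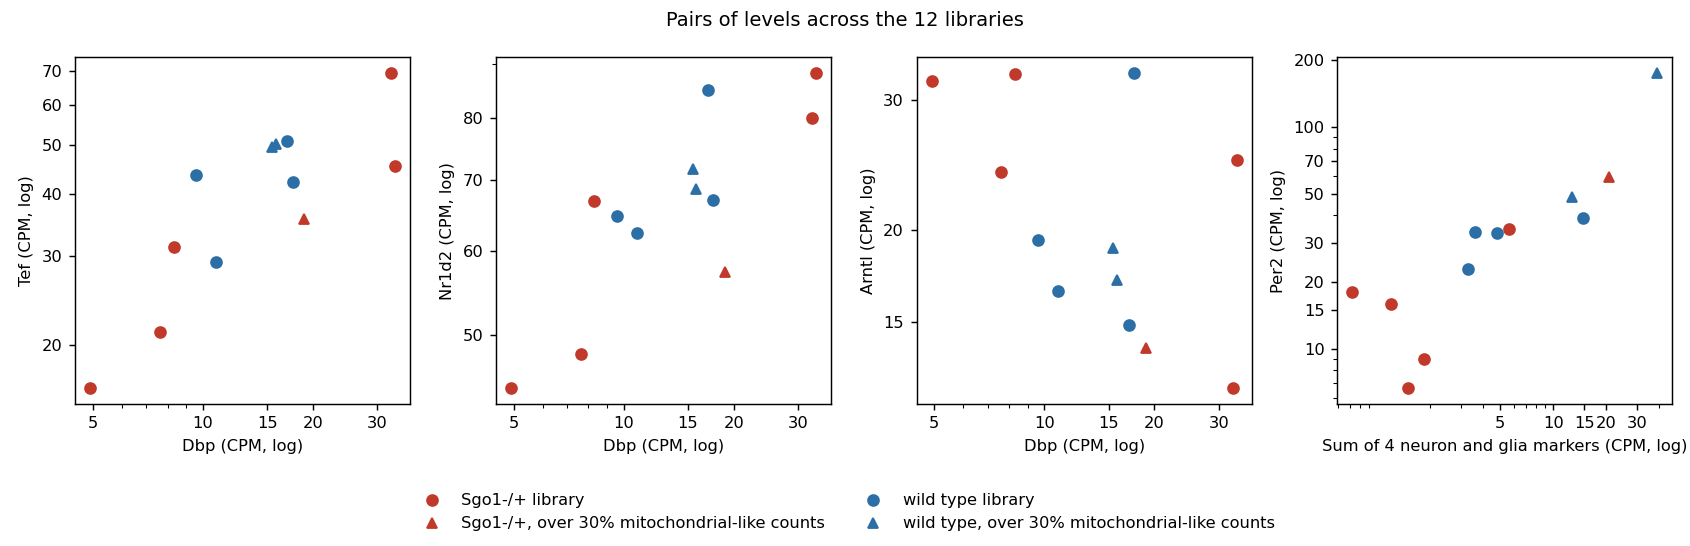
Levels of gene pairs in the 12 libraries in CPM on log axes, with Sgo1-/+ libraries and wild type libraries in separate colours and triangles for the 3 libraries with over 30% mitochondrial-like counts. Tef and Nr1d2 climb with Dbp (r = 0.83 and 0.81), Arntl declines with Dbp (r = -0.50), and Per2 climbs with the sum of 4 neuron and glia markers (r = 0.87).

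Whether libraries differed in clock phase was described by setting the morning-phase genes (Arntl, Npas2 and Cry1) against the 7 evening-phase genes. For each library the contrast is the mean log2 CPM of the morning-phase genes minus that of the evening-phase genes, each gene first centred on its mean over the 12 libraries. It was 1.60, -0.62, -0.07, 0.31, 0.70 and -0.83 in Sgo1-/+ replicates 1 to 6, and 0.05, 0.04, -0.22, -0.61, -0.63 and 0.29 in wild type replicates 1 to 6. Sgo1-/+ libraries thus stood at both ends of the scale, and every wild type library lay between them.

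In Sgo1-/+ replicate 1 all 3 morning-phase genes were above their mean and 0 of the 7 evening-phase genes were. Sgo1-/+ replicate 6 leaned the opposite way but less fully, with 0 of the 3 morning-phase and 5 of the 7 evening-phase genes above. Sgo1-/+ replicate 5 came close to replicate 1, with 3 and 1 genes above their mean, and wild type replicate 4 close to Sgo1-/+ replicate 6, with 0 and 5. The opposition was not general, since wild type replicate 6 had 3 of 3 and 6 of 7 above their mean and wild type replicate 2 had 0 of 3 and 1 of 7.

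The contrast averaged 0.18 ± 0.90 in Sgo1-/+ and -0.18 ± 0.38 in wild type (SD, n = 6 each), a difference of 0.36 that is smaller than the spread in Sgo1-/+. The difference was 0.66 among libraries without the suffix and -0.24 among those with it, 0.076 without Sgo1-/+ replicate 1 and 0.56 without Sgo1-/+ replicate 6. It is given as a description, with no test, and the labels hold no collection times to set beside it. Of the 10 genes, Per2 and Bhlhe41 had the largest genotype differences in mean log2 CPM, at -1.31 and -1.08. The other evening-phase genes were at -0.20 to 0.07 and the morning-phase genes at -0.21 to 0.18. The genotype difference in the contrast thus rests mostly on Per2 and Bhlhe41, which also followed the myeloid sum and the mitochondrial-like share.

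**Figure D4:**
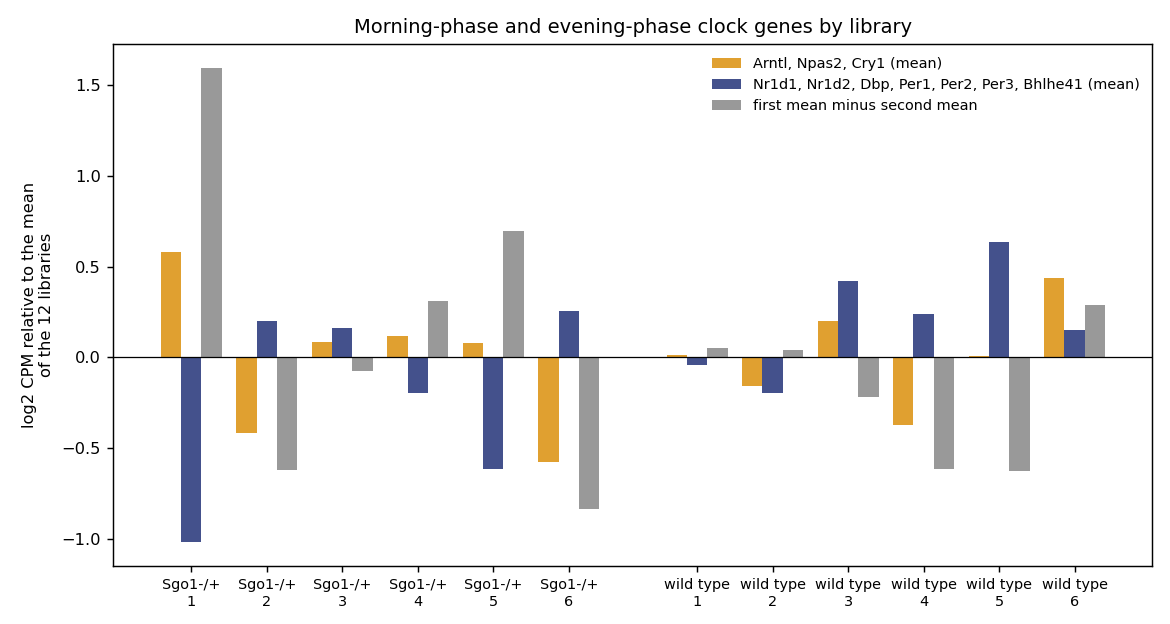
Mean of the 3 morning-phase genes minus mean of the 7 evening-phase genes in each library, in log2 CPM centred on each gene's mean over the 12 libraries, with Sgo1-/+ libraries left of wild type libraries. Sgo1-/+ libraries span -0.83 to 1.60 and wild type libraries -0.63 to 0.29.

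Genes of the loop were next compared pair by pair across the 12 libraries, over all genes tested. Arntl and Dbp, which peak at opposite times in mouse tissues, had an r of -0.50 (permutation p = 0.0977) and a rho of -0.41 (permutation p = 0.194), and the adjusted p of r was 0.933 over 13901 genes. Without the 2 libraries farthest from the median Arntl level r was -0.59, and in the 8 libraries without the suffix it was -0.53. No gene passed an adjusted p of 0.05 with Arntl (0%), and 4.58% of all genes had an unadjusted p under 0.05. None of the other 9 clock genes was among those. Their r with Arntl ran from -0.50 for Dbp, -0.49 for Bhlhe41 and -0.49 for Per3 to 0.23 for Nr1d1 and 0.37 for Npas2, with Cry1 at -0.02.

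Dbp had closer company among the evening-phase genes. Nr1d2 had an r of 0.81 with Dbp (permutation p = 0.0018) and a rho of 0.71 (permutation p = 0.0127), and r was 0.61 without the 2 libraries farthest from the median Dbp level and 0.77 without the suffix. Per3 had an r of 0.61 (permutation p = 0.036) and a rho of 0.54 (permutation p = 0.0747), and r was 0.41 without the 2 farthest libraries and 0.64 without the suffix. These 2 of the 9 other clock genes had an unadjusted p under 0.05 for r, against 1.29% of all genes, and 0 (0%) passed after adjustment over 13901 genes, where the adjusted p of each of the 9 was 0.99982. The remaining r with Dbp were 0.51 for Bhlhe41, 0.41 for Nr1d1, 0.37 for Per1, 0.29 for Per2, -0.46 for Cry1 and -0.51 for Npas2.

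**Figure D5:**
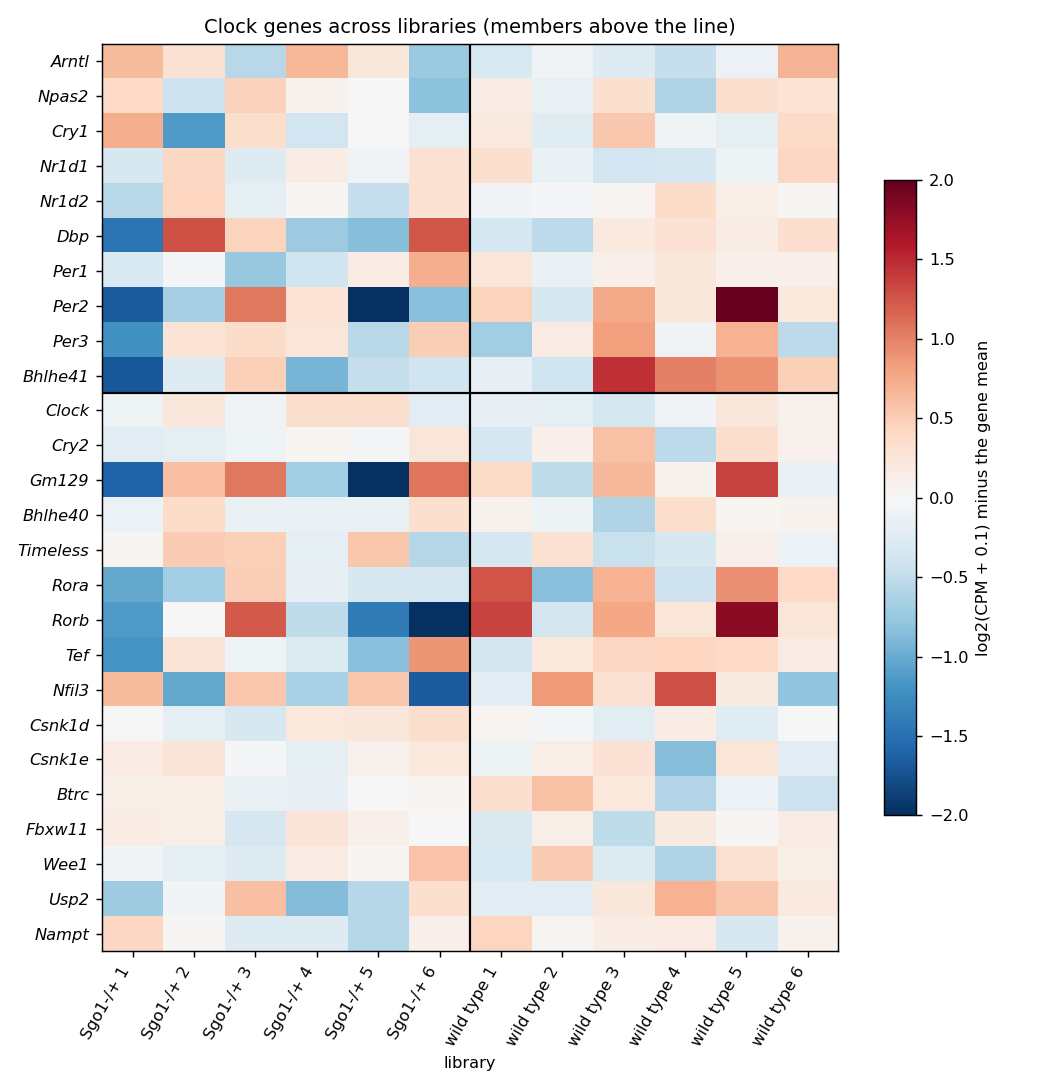
Log2 level of each clock gene in each library relative to the gene's mean over the 12 libraries, with Sgo1-/+ libraries left of wild type libraries and colours that saturate at 2 log2 units. Sgo1-/+ replicate 1 is above the mean for all 3 morning-phase genes and below it for all 7 evening-phase genes, and Sgo1-/+ replicate 6 is below the mean for all 3 morning-phase genes.

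A wider list of 20 names of clock activators, repressors, receptors, kinases, ligases and output genes had 19 in the tables and 16 past the filter. None of the 16 passed an adjusted p of 0.05 in edgeR, DESeq2 or limma-voom, 7 were higher and 9 lower in Sgo1-/+ (5 of the 9 turned under scaling by library totals alone), and their median log2 change was -0.088. The list's 1 gene with an unadjusted p under 0.05 in edgeR was the receptor gene Rora, whose product competes with the Nr1d proteins for the same element.

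Rora ran from 2.51 over 4.14 to 7.39 CPM in Sgo1-/+ and from 2.87 over 7.73 to 12.7 CPM in wild type, and the groups overlapped. Its log2 change was -0.79 ± 0.36, at an edgeR p of 0.0466 before and 0.549 after adjustment. Rorb, the family member best known from neurons and the retina, was at -1.15 ± 0.54 (edgeR adjusted p = 0.551). Rorb followed the neuron and glia sum with an r of 0.84 (permutation p = 0.00066, adjusted p = 0.0191) and a rho of 0.83 (permutation p = 0.0013, adjusted p = 0.0419), and Rora with an r of 0.83 (permutation p = 0.0012, adjusted p = 0.0288) and a rho of 0.80 (permutation p = 0.0026, adjusted p = 0.065). Without the 2 farthest libraries r was 0.94 for Rorb and 0.79 for Rora, without the suffix 0.80 and 0.90, and in the 9 libraries with the lower mitochondrial-like share 0.68 and 0.75. Rorb also had an r of 0.84 with the myeloid sum (permutation adjusted p = 0.0108) and 0.82 with the mitochondrial-like share (permutation adjusted p = 0.0105). For Rora these were 0.62 and 0.68 (permutation adjusted p = 0.101 and 0.0527). Of all genes tested 24.1% followed the myeloid sum at an adjusted p under 0.05, and 4452 of 13902 followed the share. These r and rho of Rora and Rorb were not centred within genotype either.

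Clock, the usual partner of Arntl, was at 65.6 to 96.3 CPM in Sgo1-/+ and 60.5 to 90.1 CPM in wild type, with a log2 change of 0.16 ± 0.13 and an r of 0.58 with Arntl (permutation p = 0.0508; rho = 0.55, permutation p = 0.0674). Tef, a PAR bZIP relative of Dbp, ran from 16.4 over 33.4 to 69.5 CPM in Sgo1-/+ and from 29.2 over 46.6 to 50.8 CPM in wild type. Like Dbp, Tef had its lowest and its highest library within Sgo1-/+, replicates 1 and 6. Its r with Dbp was 0.83 (permutation p = 0.00086) and its rho 0.68 (permutation p = 0.0185), with r at 0.81 without the 2 farthest libraries and 0.75 without the suffix.

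Gm129, the repressor also called Ciart or Chrono, ran from 0.59 over 3.39 to 6.79 CPM in Sgo1-/+ and from 2.20 over 3.75 to 8.26 CPM in wild type, on as few as 6 counts. Its r was 0.78 with Dbp (permutation p = 0.0026; rho = 0.71, permutation p = 0.0119) and -0.63 with Arntl (permutation p = 0.0292; rho = -0.64, permutation p = 0.0271), and without the 2 farthest libraries it was 0.76 and -0.68. The ubiquitin protease gene Usp2, a known clock output, had an r of 0.71 with Dbp (permutation p = 0.01; rho = 0.71, permutation p = 0.0129) and -0.70 with Arntl (permutation p = 0.0141; rho = -0.69, permutation p = 0.0157). Without the 2 farthest libraries these were 0.79 and -0.78, and without the suffix 0.67 and -0.92. Adjusted over 13901 genes none of the p-values of Tef, Gm129, Usp2 or Clock passed, at 0.99982 with Dbp and 0.933 with Arntl. Nfil3, a bZIP repressor that works against Dbp, had an r of -0.53 with Dbp (permutation p = 0.0802; rho = -0.52, permutation p = 0.0841).

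The casein kinase genes Csnk1d and Csnk1e, which mark Per proteins for turnover, were at 0.10 ± 0.13 and 0.14 ± 0.19 (log2 change ± SE). The Per ligase subunit genes Btrc and Fbxw11 were at -0.06 ± 0.19 and 0.09 ± 0.14. Cry2 had a log2 change of -0.11 ± 0.18, Bhlhe40, the sister gene of Bhlhe41, 0.05 ± 0.15, and Timeless 0.29 ± 0.25. Among outputs, the cell cycle kinase gene Wee1 was at 0.06 ± 0.22, the NAD synthesis gene Nampt at -0.17 ± 0.16 and Usp2 at -0.36 ± 0.26. Adjusted p-values of these genes were 0.682 to 0.942 in edgeR.

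By Pearson r over the 12 libraries, with genes of under 10 counts on average left out, the genes most like Arntl were CT030166.1 (0.89), St5 (0.87), Tppp (0.86), Trpm6 (0.85) and Pdp2 (0.85), and those most opposed were Gbe1 (-0.85), Aurkaip1 (-0.84), Ovol1 (-0.82), Padi2 (-0.81) and Tmem51 (-0.81). Trpm6, a magnesium channel of the colon, was at 54.8 to 121 CPM in Sgo1-/+ and 56.1 to 129 CPM in wild type. For Dbp the most alike were Cebpb (0.86), Tef (0.83), Amdhd2 (0.82), Rps29 (0.78) and Arid4b (0.77), and the most opposed Arrb1 (-0.86), Fyn (-0.77), Pak1ip1 (-0.75), Rad51ap1 (-0.74) and Kti12 (-0.71). Arrb1, which encodes a beta-arrestin, was at 109.7, 55.2, 49.6, 94.6, 98.6 and 59.7 CPM in Sgo1-/+ replicates 1 to 6 and at 69.0 to 92.7 CPM in wild type. Its 3 highest libraries, Sgo1-/+ replicates 1, 5 and 4, were the 3 lowest for Dbp. None of these 20 relations passed after adjustment over all genes.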

How the data were processed

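Trizol extracts of colonic mucosa gave purified mRNA, from which TruSeq RNA v2 libraries were made and run on a MiSeq, per the labels' protocols. The submitters' processing notes name mm10 as genome build and DESeq as tool. Aligner, counter and strand setting: not given in the sources used here. The authors deposited, for each sample, a column of expected counts per gene, of which 69.6% of the values above 0 were not whole at a tolerance of 0. They also deposited a normalized column of log2 values, which was not used.

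The expected counts were rounded. Rows lacking an Ensembl identifier (505, holding 1.79% to 5.40% of counts) were dropped. The 12 libraries fall into 2 genotypes of 6. The genes and lists were chosen with earlier results of these data known. The relations to cell type markers and to the mitochondrial-like share, and the overlaps of exons, were added after the values were seen.

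Genotypes were compared over all genes with edgeR 4.0.16 in R 4.3.3, using glmQLFit and glmQLFTest, TMM factors, and filterByExpr (minimum count 10, minimum total 15). P-values were adjusted by Benjamini-Hochberg with a threshold of 0.05. DESeq2 1.42.0, whose adjusted p was missing for 9860 genes, and limma-voom (limma 3.58.1) were alternatives, beside other scalings, filters, covariates and left-out libraries. Single genes were also compared by exact two-sided permutation of mean log2 CPM (prior count 2) over all 924 splits. Correlations of log2 CPM used two-sided permutation of the libraries with 100000 resamples in Python 3.11.15, adjusted over all genes tested. The edgeR fit was tested on simulated counts in which 100 genes changed by 1 log2 unit and 100 by 2. At the threshold of 0.05 it recovered 50% and 90% of them, and 10 of its 150 calls were of unchanged genes. A gene that was not called may thus still differ. Exon lengths and overlaps come from GENCODE M21, gene positions from the annotation deposited with the counts, and promoter windows from RefSeq, build GRCm38.p6. Named are the 10 clock genes, the other clock genes listed, and the 5 genes with the highest and the 5 with the lowest r with Arntl and with Dbp, from those averaging 10 counts or more and not named as predicted genes. Some listed genes are not reported here and enter no list count or marker sum. The counts behind a gene limit the precision of its level.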

Additional observations from a re-analysis of the deposited data

Results flagged for a closer look

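In 3 of 54 groups of 6 libraries examined, for the 10 clock genes, the 16 other clock genes tested and the contrast of morning-phase and evening-phase genes, the highest or the lowest library stood apart from the rest, with a gap to its neighbour, relative to the whole range, above Dixon's 95% critical value. Gaps and ranges were taken on the log2 CPM scale, and the levels below are in CPM. Chance alone marks about 1 group in 20. Arntl was highest in wild type replicate 6, at 32.62 CPM, with a gap of 0.665 of the range. Per2 was highest in wild type replicate 5, at 175.3 CPM, with a gap of 0.634 of the range. Tef was lowest in wild type replicate 1, at 29.21 CPM, with a gap of 0.663 of the range.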

How the results depend on the processing

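Of 567 log2 changes recomputed for 27 genes (the clock genes tested and Sgo1), 528 kept their direction and their side of the threshold and 39 turned their direction, and 0 clock genes were called under any setting. The number of genes called over all genes was 37 with DESeq2 and 1, Hoxa11as, in a fit that held the mitochondrial-like share, and 0 under every other setting run. Scaling by library totals alone moved the median of all genes to 0.31, and turned Npas2 (0.24), Cry1 (0.21), Nr1d2 (0.21), Per1 (0.24), Per3 (0.26), Cry2 (0.26), Gm129 (0.098), Tef (0.079), Btrc (0.23) and Nampt (0.15), each below that median. DESeq2, run without the filter on low counts, had a median of -0.11, and edgeR without that filter -0.037. In the fit with the mitochondrial-like share Npas2 was at 0.087, Nr1d1 at -0.028, Per3 at 0.15, Gm129 at 0.18, Bhlhe40 at -0.030, Csnk1d at -0.042, Fbxw11 at -0.040 and Wee1 at -0.052. Dbp was at -0.045 with limma-voom. Without the 3 libraries rich in mitochondrial-like counts Per3 was at 0.22, Cry2 at 0.13 and Bhlhe40 at -0.017. Leaving out single libraries gave -0.18 to 0.064 for Npas2, -0.33 to 0.036 for Cry1, -0.0030 to 0.17 for Nr1d1, -0.24 to 0.066 for Per3, -0.21 to 0.017 for Cry2, -0.53 to 0.037 for Gm129, -0.045 to 0.13 for Bhlhe40, -0.16 to 0.098 for Btrc and -0.048 to 0.22 for Wee1. The causes were not tested. The genotype difference in the contrast of morning-phase and evening-phase genes ran from 0.076 to 0.56 without single libraries and was -0.24 among the libraries with the suffix. The r of Arntl and Dbp ran from -0.69 (permutation p = 0.0203, without Sgo1-/+ replicate 2) to -0.36 (permutation p = 0.272, without Sgo1-/+ replicate 1), was -0.62 without wild type replicate 6 (permutation p = 0.0422), and was -0.19 with library totals alone.

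The labels number the samples 1 to 6 in both genotypes. With the number as a replicate block edgeR called 0 genes, 0 of them clock genes, and Dbp was at -0.018, Per2 at -1.16 and Bhlhe41 at -1.10 (edgeR adjusted p = 0.271). Deviations of same-numbered libraries from their group means correlated by -0.30 to 0.45, and 0 Sgo1-/+ libraries correlated best with the wild type library of the same number. A pairing with little effect on levels would not show in these correlations, so they do not tell whether the numbers pair the samples.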
